A study of Mus musculus with 4 samples.

Results

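Interferon response genes are the genes that cells switch on when an interferon binds its receptor. A list of 35 such genes was read on liver arrays, 24 of them classed as type I interferon targets and 11 as interferon gamma targets. The members were found by name: every probe that is not a control spot was taken if its gene name was one of the 35 symbols or an older symbol of the same gene. This found 57 of 41174 probes, of which 53 measured members of the list. Another 3 carried a member's name but belonged to other genes by their accession, and 1 had a gene that could not be settled.

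The study put a Lactobacillus isolate from ostrich into mice and followed body weight, gut bacteria and metabolism. Livers were taken 20 days after inoculation from 2 female BALBc mice labelled LB1 and from 2 female BALBc mice labelled control, and each liver RNA was read on 1 whole-genome array with 60-base probes and 1 dye. LB1 is not spelled out in the labels, nor is the treatment of the control mice, and the sample titles call the LB1 animals stuff mice. With 2 livers per group, the number of arrays limits the precision of every value below.

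Type I interferons, the alpha and beta interferons, bind a receptor made of IFNAR1 and IFNAR2, whose kinases JAK1 and TYK2 act on STAT2. Together with IRF9 it takes part in a complex that binds the interferon-stimulated response element (ISRE) in promoters. Interferon gamma binds IFNGR1 and IFNGR2, and the signal passes through JAK1 and JAK2 to gamma-activated sites (GAS) in promoters such as that of Irf1. Many genes answer to both, so the classes name a main route and not an exclusive one. In the liver, hepatocytes, Kupffer cells and endothelium all carry these receptors.

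The promoters of 25 of the 35 members were matched in RefSeq (GRCm38.p6), 16 of the type I class and 9 of the gamma class. The 250 bases before each start were searched on both strands for GAAANNGAAA or TTTCNNTTTC as ISRE letters and for TTCNNNGAA as GAS letters, and an ISRE and a GAS match did not share bases in the windows printed here. ISRE letters were found in 12 of the 25 members (48.0%), against 3.46% of all 27025 genes with a promoter. They were in 7 of 16 type I members (43.8%) and in 5 of 9 gamma members (55.6%). GAS letters were found in 6 of the 25 members (24.0%), against 8.13% of all genes, namely in 2 of 16 type I members (12.5%) and 4 of 9 gamma members (44.4%). Of the 9 members whose level differed between the groups, 7 had a promoter here. The 4 of those with a match are printed first, and Isg15 and Ifit1, classic type I targets, are printed beside them. Capitals mark the matches, and each window reads 5′ to 3′ on the gene's strand.
Irf1, GAS, chr11:53769899-53769958, plus strand: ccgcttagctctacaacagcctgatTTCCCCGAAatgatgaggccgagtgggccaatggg
Tgtp1, GAS and ISRE, chr11:48992289-48992348, minus strand: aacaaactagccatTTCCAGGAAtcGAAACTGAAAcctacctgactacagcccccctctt
Gbp2, ISRE, chr3:142620579-142620638, plus strand: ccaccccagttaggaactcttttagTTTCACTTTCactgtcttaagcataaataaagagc
Stat2, ISRE, chr10:128270251-128270310, plus strand: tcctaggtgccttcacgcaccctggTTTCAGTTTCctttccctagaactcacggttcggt
Isg15, ISRE, chr4:156200850-156200909, minus strand: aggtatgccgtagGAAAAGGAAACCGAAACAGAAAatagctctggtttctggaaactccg
Ifit1, ISRE, chr19:34640779-34640838, plus strand: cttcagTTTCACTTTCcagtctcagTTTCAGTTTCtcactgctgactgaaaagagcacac
The 250 bases of Ddx58, Ifih1 and Tap1 held neither set of letters, and a further RefSeq start of Irf1 had no match.

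The arrays differed in brightness before scaling. Taken as the 75th percentile of an array's processed signals, it was 146.9 and 80.8 on the LB1 arrays, against 410.9 and 414.7 on the control arrays. Probes well above background numbered 22921 and 20311 on the LB1 arrays, against 25861 and 24736 on the control arrays. Each level below is therefore the log2 of a probe's signal relative to the 75th percentile of its own array, so that 0 is that percentile, and each difference is LB1 minus control on this log2 scale. Levels of the tested probes correlated at 0.973 between the LB1 arrays and at 0.989 between the control arrays, against 0.906 to 0.95 between groups. Slide 1 held LB1 replicate 1 and control replicate 1, and slide 2 held LB1 replicate 2 and control replicate 2. The hepatocyte markers Alb and Apoa1 were among the saturated spots, so the labelled tissue was present, and no member probe was saturated on any array.

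A probe was tested where both arrays of at least 1 group were well above background, and a gene is given by its brightest tested probe. A gene counts as changed where limma's adjusted p over all 22974 tested probes was under 0.05. Of the 53 member probes 46 were tested, and 34 of 35 genes had a value. Oas1b, a truncated and inactive member of the oligoadenylate synthetase family in BALB/c and most other laboratory strains, was not tested. The brightest probes of 31 genes were well above background on all 4 arrays, the others being those of Mx1, Oas3 and Ifit2. Because the livers are whole tissue, fewer cells of a type and less RNA per cell cannot be told apart in any of these values.

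The interferon response genes passed the test no more often than genes at large, and those that passed went in both directions. Of the 34 tested genes 4 were higher, 5 were lower and 25 did not pass the test. The higher genes were Irf1, Oas2, Ddx58 and Stat2, and the lower ones were Tap1, Tgtp1, Gbp2, Ifih1 and Usp18. Before scaling, the signals of Stat2 and Ddx58 were lower in both LB1 livers than in both control livers. Those of Irf1 and Oas2 overlapped between the groups, so the higher calls rest on the scaling. The share that passed was 26.5%, against 31.5% of all 15780 tested genes. In the higher direction it was 11.8% of the members against 21.7% of all genes, and in the lower direction 14.7% against 9.78%. The median difference over the members was 0.12, against 0.29 over all tested genes. The split of calls depended on how the arrays were scaled: of all tested probes 4409 were higher and 3030 lower, but 2451 higher and 3972 lower after quantile normalization and 1658 higher and 7126 lower with scaling to the array median. Of the members 2 were higher and 6 lower after quantile normalization, 2 and 5 when scaled to the array median, and 7 and 6 with normexp background correction. With the deposited series table, whose intensities are not background-subtracted, 11 were higher and 5 lower. More of all 22974 tested probes passed in the last 2 settings too, 15996 with normexp background correction and 14446 with the series table. By probe, 4 of the 46 tested member probes were higher and 6 were lower, where 32.4% of all tested probes passed either way. In 20 of the 34 members the LB1 and control livers did not overlap, where 76.8% of all tested genes had no overlap. The widest differences were 2.07 for Oas2 and -1.35 for Tap1, and 10 members differed by more than 2-fold either way.

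**Figure D1:**
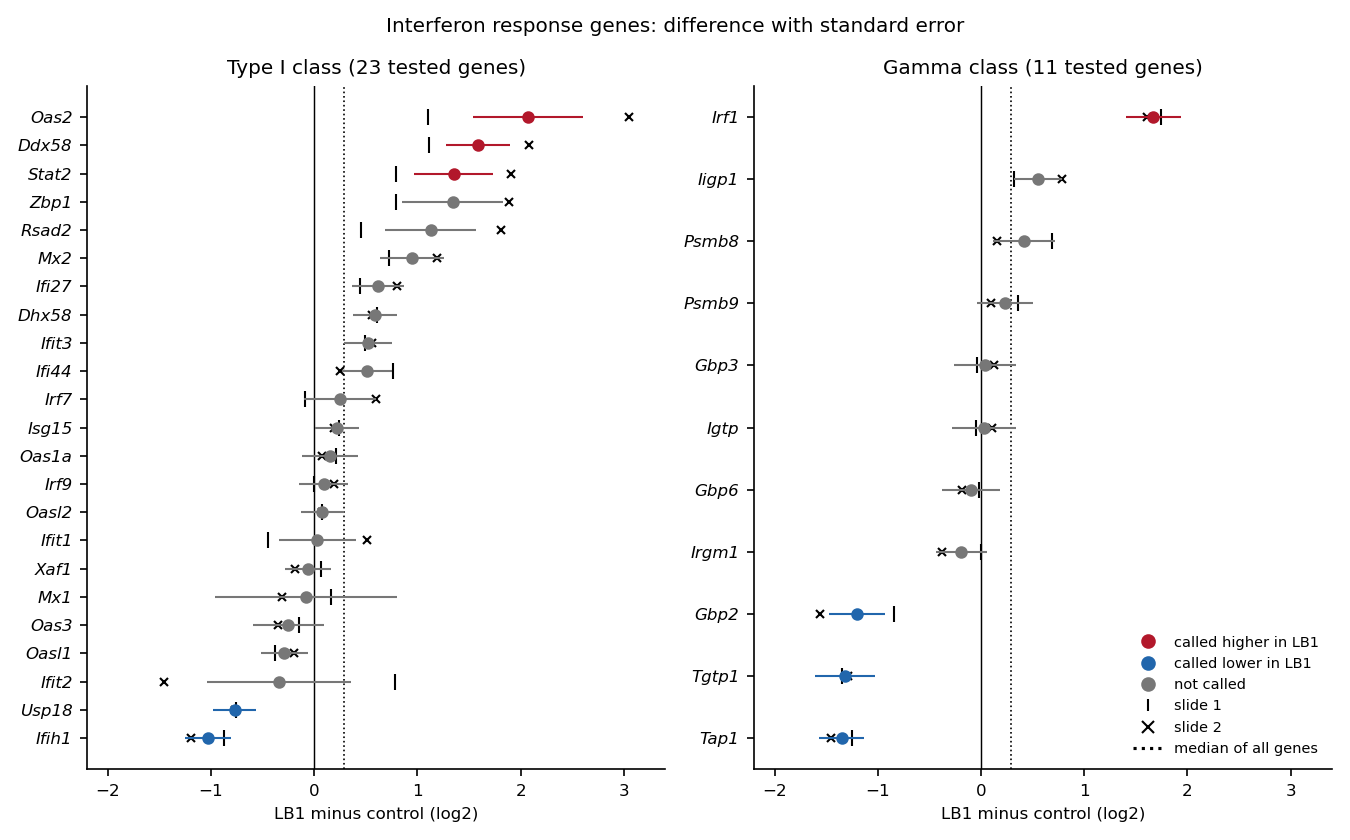
Difference in log2 level, LB1 minus control, of each tested member by class (x axis), with the standard error as a bar (n = 2 livers per group), the value within slide 1 as a tick and within slide 2 as a cross; the dotted line is the median of all tested genes, 0.29. Most members lie between -0.5 and 1, while Oas2 (2.07), Irf1 (1.67) and Ddx58 (1.59) lie to the right and Gbp2 (-1.20), Tgtp1 (-1.32) and Tap1 (-1.35) to the left.

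Among type I targets 3 of 23 tested genes were higher, 2 were lower and 18 did not pass, and among gamma targets 1 of 11 was higher, 3 were lower and 7 did not pass. The share that passed was 21.7% of type I and 36.4% of gamma targets, against 31.5% of all genes. In the higher direction it was 13.0% and 9.09%, against 21.7% of all genes, and in the lower direction 8.7% and 27.3%, against 9.78%. The median difference was 0.22 for type I targets, with a range of -1.03 to 2.07, and 0.03 for gamma targets, with a range of -1.35 to 1.67. Both medians lay below that of all genes, by 0.08 for the type I class and by 0.27 for the gamma class. The type I median exceeded the gamma median by 0.19. This gap was 0.26 within slide 1 and 0.15 within slide 2, and it was -0.01 without LB1 replicate 1 and 0.59 without control replicate 1. A difference between the classes of this size was therefore smaller than what 1 liver moved.

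The signalling members of the type I route are Stat2, Irf9 and Irf7, the last of which drives the later wave of interferon production. Stat2 had levels of 2.66 and 3.65 in LB1 livers, against 1.87 and 1.74 in control livers. Both LB1 livers lay above both control livers, LB1 replicate 2 by more. The difference was 1.35 ± 0.38 (SE, n = 2 per group, adjusted p = 0.0496), a 2.55-fold higher level, with 0.79 within slide 1 and 1.91 within slide 2. Before scaling, its signals were 930 and 1013 in LB1 livers, against 1503 and 1387 in control livers. The Stat2 call was the least secure of the 9: with the slide as a block its adjusted p was just above the threshold, and it reached 0.184 with scaling to the array median. Irf9 differed by 0.09 ± 0.24 (adjusted p = 0.782) and Irf7 by 0.25 ± 0.35 (adjusted p = 0.593), and their groups overlapped.

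The RNA sensors of the list are Ddx58, which encodes RIG-I, Ifih1, which encodes MDA5, their regulator Dhx58, which encodes LGP2, and the nucleic acid sensor Zbp1. Ddx58 had levels of 1.71 and 2.37 in LB1 livers, against 0.60 and 0.29 in control livers, on its brightest probe at chr4:40156918-40156977 (mm9, minus strand). The groups did not overlap, and the difference was 1.59 ± 0.31 (SE, adjusted p = 0.0261), with 1.11 within slide 1 and 2.08 within slide 2. Ifih1 went the other way, with levels of 1.20 and 1.07 in LB1 livers, against 2.07 and 2.26 in control livers. Its difference was -1.03 ± 0.22 (adjusted p = 0.0295), and both slides showed the lower level in LB1, at -0.87 and -1.19. Zbp1 had 2.13 and 3.51 in LB1 livers, against 1.34 and 1.62 in control livers, and did not pass at 1.34 ± 0.49 (adjusted p = 0.0900). Dhx58 differed by 0.59 ± 0.21 (adjusted p = 0.0871).

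The oligoadenylate synthetases make the small messenger that activates RNase L, which cuts viral RNA, and Oasl1 and Oasl2 are related proteins. Oas2 had levels of -0.34 and 1.11 in LB1 livers, against -1.44 and -1.94 in control livers, read at chr5:121180434-121180493 (mm9, minus strand). The LB1 livers lay further from each other than the lower of them lay from the nearer control liver, yet both were above both control livers. The difference was 2.07 ± 0.53 (SE, adjusted p = 0.0406), with 1.1 within slide 1 and 3.05 within slide 2, and the adjusted p was 0.0556 after quantile normalization. Oas1a, Oas3, Oasl1 and Oasl2 lay between -0.29 and 0.15, with adjusted p-values from 0.365 to 0.779. Oas3 was not well above background on either of the LB1 arrays, and Oas1a is one of a cluster of near-identical copies whose transcripts its probe may share.

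The remaining type I targets include the antiviral effectors most often used as a readout of the pathway. Isg15, a ubiquitin-like modifier, had levels of 1.72 and 1.81 in LB1 livers, against 1.47 and 1.62 in control livers, and differed by 0.22 ± 0.21 (adjusted p = 0.458). Ifit1, which binds foreign RNA ends, had 0.21 and 0.19 in LB1 livers, between the 0.66 and -0.32 of the control livers, and differed by 0.03 ± 0.37 (adjusted p = 0.954). Ifit3 differed by 0.52 ± 0.23 (adjusted p = 0.129), and its probe may also read the near-identical Ifit3b. These 3 genes, whose promoter windows hold ISRE letters, thus showed no change past the test. Rsad2, which encodes viperin, differed by 1.13 ± 0.44 (adjusted p = 0.102) and Mx2 by 0.95 ± 0.31 (adjusted p = 0.0695), both with LB1 livers above control livers. Mx1, which is defective in BALB/c and most laboratory strains, differed by -0.08 ± 0.88 on a probe not well above background on 1 LB1 array. Ifi27, Ifi44 and Xaf1 lay between -0.06 and 0.62 and did not pass.

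Usp18 removes Isg15 from proteins and also blocks signalling at IFNAR2, so it is both a target and a brake of the type I route. Its levels were 0.82 and 0.82 in LB1 livers, against 1.58 and 1.59 in control livers. The groups stood apart with almost no spread inside them, and the difference was -0.77 ± 0.21 (SE, adjusted p = 0.0456), a 1.70-fold lower level in LB1. The 2 slides gave -0.76 and -0.77, but with the slide as a block the adjusted p was 0.0699.

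**Figure D2:**
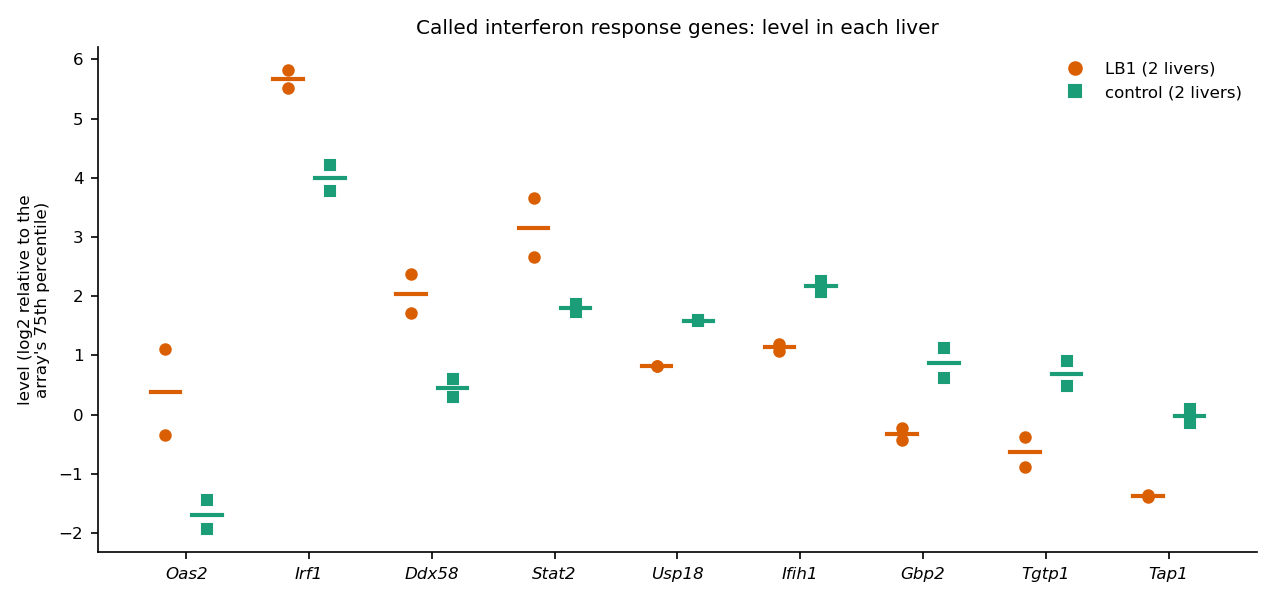
Level of each member that passed the test (y axis, log2 scale on which 0 is the 75th percentile of the array) in each liver, LB1 as circles and control as squares, with the mean of 2 livers as a line. LB1 lies above control for Oas2, Irf1, Ddx58 and Stat2 and below it for Usp18, Ifih1, Gbp2, Tgtp1 and Tap1, with no overlap of the groups in any of the 9; the LB1 livers of Oas2 are the most spread, at -0.34 and 1.11.

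Irf1, the transcription factor that carries much of the interferon gamma response, was the only one of the 11 gamma members that was higher. Its levels were 5.51 and 5.82 in LB1 livers, against 3.77 and 4.21 in control livers, at chr11:53590715-53590774 (mm9, plus strand). The levels of the groups were far apart compared with their spread, and the difference was 1.67 ± 0.27 (SE, adjusted p = 0.0222), a 3.19-fold higher level. The difference was nearly equal within slide 1 (1.74) and slide 2 (1.61). Before scaling, the Irf1 signals were 6695 and 4557 in LB1 livers, against 5623 and 7660 in control livers. Its promoter window above holds the GAS letters.

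The gamma targets that were lower were Tap1, of antigen presentation, and the interferon-induced GTPases Gbp2 and Tgtp1. All gamma members of the list except Irf1 are of these kinds. Tap1, a subunit of the transporter that carries peptides to MHC class I, had levels of -1.39 and -1.36 in LB1 livers, against -0.14 and 0.09 in control livers. Its difference was -1.35 ± 0.22 (SE, adjusted p = 0.0224), with -1.25 within slide 1 and -1.45 within slide 2. With normexp background correction the difference was smaller, at -0.42 (adjusted p = 0.0420). Gbp2, a guanylate-binding protein that attacks the membranes of intracellular microbes, had -0.22 and -0.43 in LB1 livers, against 0.61 and 1.13 in control livers, a difference of -1.20 ± 0.27 (adjusted p = 0.0327). Tgtp1, a GTPase of the IRG family, had -0.88 and -0.38 in LB1 livers, against 0.48 and 0.90 in control livers, a difference of -1.32 ± 0.29 (adjusted p = 0.0315). Within slides 1 and 2 the differences were -0.84 and -1.56 for Gbp2 and -1.35 and -1.29 for Tgtp1. Tgtp1 has a near-identical copy, Tgtp2, so its value may stand for both genes.

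The other GTPases did not follow Gbp2 and Tgtp1. Gbp3 differed by 0.04 ± 0.30, Gbp6 by -0.10 ± 0.28, Igtp, which encodes IRGM3, by 0.03 ± 0.31 and Irgm1 by -0.19 ± 0.25, with adjusted p-values from 0.573 to 0.955. Iigp1 had levels of 6.31 and 6.52 in LB1 livers, against 5.99 and 5.75 in control livers, and did not pass at 0.55 ± 0.23 (adjusted p = 0.121). Whether these genes differ from Gbp2 and Tgtp1 in their response was not tested. Psmb8 and Psmb9, catalytic subunits of the immunoproteasome that lie beside Tap1 in the MHC region of chromosome 17, differed by 0.42 ± 0.30 (adjusted p = 0.309) and 0.23 ± 0.27 (adjusted p = 0.522). On mm9 their probes start at 34337828 and 34319174, on either side of the Tap1 probe at 34330854.

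Probes of the same gene often disagreed. Of the 10 members with 2 or 3 tested probes, 6 had probes of opposite sign, although the wide cases were those of Ddx58, Irf1 and Tgtp1. Their probe sequences are shown where the disagreement bears on a gene that passed the test, all in the direction of the transcript.
Ddx58, higher in LB1, chr4:40156918-40156977, minus strand: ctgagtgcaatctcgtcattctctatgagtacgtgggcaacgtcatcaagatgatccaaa
Ddx58, lower in LB1, chr4:40152842-40152901, minus strand: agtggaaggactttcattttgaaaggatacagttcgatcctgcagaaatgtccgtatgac
Irf1, did not pass, chr11:53587446-53587591, plus strand, across an intron: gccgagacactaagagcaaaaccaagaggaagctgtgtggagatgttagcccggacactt
Tgtp1, lower in LB1, chr11:48800173-48800232, minus strand: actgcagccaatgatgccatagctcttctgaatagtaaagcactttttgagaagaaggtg

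The lower Ddx58 probe had levels of -3.54 and -5.03 in LB1 livers, against -2.00 and -1.67 in control livers. It was not well above background on either of the LB1 arrays, so its difference of -2.45 ± 0.52 (SE, adjusted p = 0.0300) is given as at least 3.04-fold lower. With normexp background correction the same probe was higher in LB1, at 0.43 (adjusted p = 0.0200). A further Ddx58 probe differed by 0.15 ± 0.23 (adjusted p = 0.629). The mean over the 3 Ddx58 probes was -0.24, so the direction for this gene rests on the brightest probe.

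The intron-crossing Irf1 probe had levels of -1.49 and -2.36 in LB1 livers, against -1.09 and -0.84 in control livers, the opposite order to the probe that passed. Its difference was -0.96 ± 0.35 (adjusted p = 0.0916) and -0.03 with normexp background correction. With scaling to the array median it was -1.59 and passed as lower in the limma fit (adjusted p = 0.0018). This probe was well above background on all 4 arrays, so the higher call for Irf1 rests on its brighter probe. The other Tgtp1 probe had -3.71 and -2.38 in LB1 livers, against -4.86 and -4.22 in control livers, and differed by 1.50 ± 0.51 (adjusted p = 0.0760). It was well above background on only 1 LB1 array, and the mean over both Tgtp1 probes was 0.09. The second Ifih1 probe differed by -0.41 ± 0.49 (adjusted p = 0.538), the same direction as the first.

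**Figure D3:**
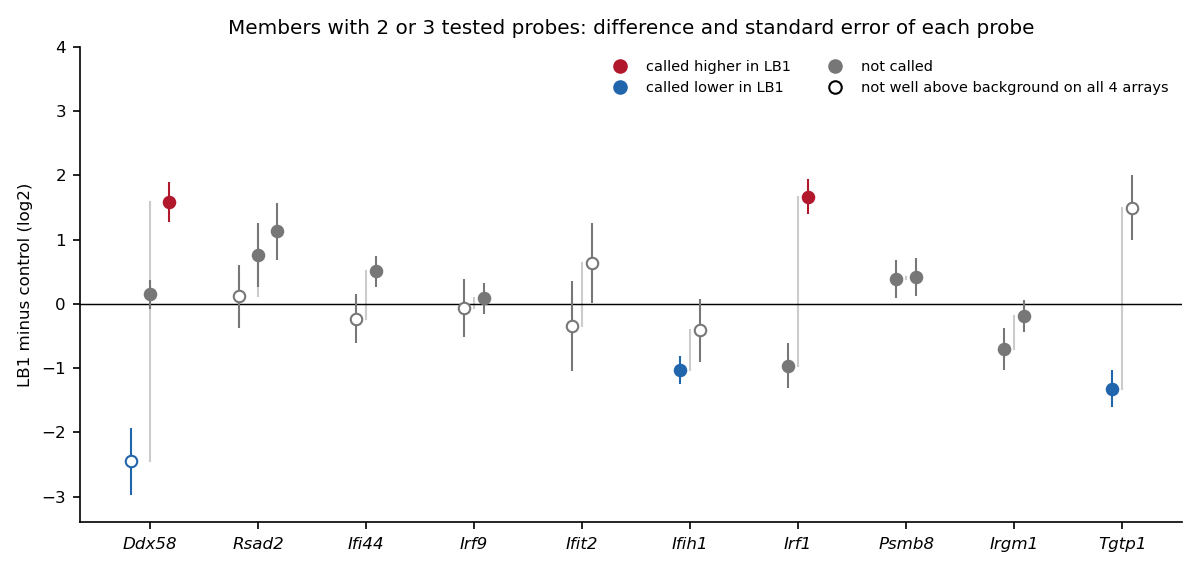
Difference in log2 level, LB1 minus control, of each tested probe (y axis, bars are standard errors, n = 2 livers per group) for the 10 members with 2 or 3 tested probes; open points were not well above background on all 4 arrays. The probes of Ddx58 span -2.45 to 1.59, those of Tgtp1 -1.32 to 1.50 and those of Irf1 -0.96 to 1.67, while the Psmb8 probes lie at 0.39 and 0.42.

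Some probes carried a member's name on the array but belonged elsewhere by accession, and they were not counted. The probe named Gbp6 is Gbp7 by its accession and was lower, at -1.36 ± 0.25 (adjusted p = 0.0243), with levels of -1.13 and -1.44 in LB1 livers, against -0.07 and 0.23 in control livers. A pair of probes named Ifi27 are Ifi27l2a by accession and were higher, at 1.72 ± 0.30 (adjusted p = 0.0239) and 1.02 ± 0.26 (adjusted p = 0.0419). A further probe named Ifi27, known only by a clone accession, was also higher, at 1.62 ± 0.25 (adjusted p = 0.0219). Reading these names as they stand would have made Ifi27 higher and Gbp6 lower, while the probes assigned to those genes gave 0.62 ± 0.25 (adjusted p = 0.109) and -0.10 ± 0.28 (adjusted p = 0.803).

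The rest of the pathway was read from a list of 96 further genes, of which 83 were tested. Of these 16 were higher, 5 were lower and 62 did not pass. This split turned with the scaling: 6 were higher and 22 lower with the array median, 11 and 9 with quantile normalization, and 24 and 20 with normexp background correction. In these settings 8784, 6423 and 15996 of all 22974 tested probes passed. The share that passed was 25.3%, against 31.5% of all genes, and the median difference was 0.11. Before scaling, the signals of the 16 higher genes were lower in LB1 livers or overlapped between the groups, so the higher calls rest on the scaling. Among the ligands 3 genes could be tested. Ifna9 had levels of -1.15 and -0.68 in LB1 livers, against -2.53 and -3.05 in control livers, and was higher by 1.88 ± 0.30 (adjusted p = 0.0223). Ifna2 was higher by 1.89 ± 0.34 (adjusted p = 0.0244), with only 1 of 2 control arrays well above background, and alpha interferon genes are so alike that their probes may read each other's transcripts. With normexp followed by quantile normalization the differences were smaller, at 0.71 for Ifna9 (adjusted p = 0.0296) and 0.27 for Ifna2, which no longer passed (adjusted p = 0.165). Ifng was not well above background on either of the LB1 arrays and did not pass (adjusted p = 0.197), and Ifnb1 was not tested.

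The receptors for both interferons did not pass the test. Ifnar1 differed by -0.01 ± 0.22, Ifnar2 by 0.08 ± 0.30, Ifngr2 by 0.44 ± 0.21 and Ifngr1 by 0.72 ± 0.21, the last with an adjusted p of 0.0521. Il10rb, a shared chain of the interferon lambda and interleukin 10 receptors, was higher by 1.04 ± 0.22 (adjusted p = 0.0285). Of the kinases, Jak2 had levels of -1.02 and -0.38 in LB1 livers, against 0.44 and 0.86 in control livers, and was lower by -1.35 ± 0.32 (adjusted p = 0.0351). Tyk2 had -0.56 and -0.63 in LB1 livers, against 0.38 and 0.50 in control livers, and was lower by -1.03 ± 0.21 (adjusted p = 0.0278). Jak1, the kinase common to both routes, differed by -0.02 ± 0.27 (adjusted p = 0.966). Irf2, which competes with Irf1 for its sites, was higher by 1.12 ± 0.21 (adjusted p = 0.0247), as was Irf3, the factor that starts interferon production, by 1.29 ± 0.31 (adjusted p = 0.0361).

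Socs1, the feedback inhibitor of the receptor kinases and itself a gamma target, had levels of -0.04 and 0.77 in LB1 livers, against -1.50 and -1.76 in control livers. Both LB1 levels were well above both control levels, with a difference of 1.99 ± 0.34 (adjusted p = 0.0232). Before scaling, the Socs1 signals overlapped, at 143 and 138 in LB1 livers, against 145 and 123 in control livers. The other 5 negative regulators on the list did not pass. In sensing, Sting1, which relays DNA signals, was higher by 0.96 ± 0.24 (adjusted p = 0.0390), and Tbk1, the kinase that activates Irf3, was lower by -1.38 ± 0.36 (adjusted p = 0.0427, and 0.0524 with the slide as a block). Tlr3, a receptor for double-stranded RNA, passed as lower (adjusted p = 0.0201) on a probe not well above background on either of the LB1 arrays, and with normexp background correction it was higher by 1.04.

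Of 24 other type I targets 3 were higher and none was lower in the limma fit, where 21 did not pass. The 3 were Trim30a (1.84 ± 0.21, adjusted p = 0.0201), Ifi27l2a and Isg20 (1.09 ± 0.26, adjusted p = 0.0352). Of 23 other gamma targets 4 were higher and 1 was lower. The share that passed was 12.5% of the other type I and 21.7% of the other gamma targets, against 31.5% of all genes. Cxcl11, a chemokine that draws T cells, was higher by 1.85 ± 0.31 (adjusted p = 0.0230), Gbp5 by 1.43 ± 0.27 (adjusted p = 0.0248) and Cd274, which encodes PD-L1, by 1.27 ± 0.22 (adjusted p = 0.0235). H2-K1, an MHC class I heavy chain, passed as higher (adjusted p = 0.0222) with 3 arrays saturated, so no size is given and its direction is not secure. Its signals before scaling were 52779 and 31316 in LB1 livers, against 63353 and 62081 in control livers. After quantile normalization its difference was 0.12 (adjusted p = 0.652), and it remains counted among the 4 higher genes. Gbp7 was the lower one. Of the 21 pathway genes that passed, quantile normalization lost 6 (Ifna2, Irf3, Tbk1, Gbp5, H2-K1 and Psmb5) and scaling to the array median lost 10, and none of these changed direction. Normexp followed by quantile normalization lost 4 (Gbp5, H2-K1, Ifna2 and Tlr3). Irf3 and Psmb5 were also lost with normexp background correction. With a control array left out none of the 21 changed direction, and the spread then comes from the LB1 pair alone. The catalytic subunits that Psmb8 and Psmb9 replace in the immunoproteasome, Psmb5 and Psmb6, were higher by 1.01 ± 0.25 (adjusted p = 0.0373) and 1.47 ± 0.30 (adjusted p = 0.0275), and whether each differs from its immune counterpart was not tested.

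Markers of some other cell types differed between the same livers, where 31.5% of all tested genes passed either way. Of 4 tested mesothelial markers 3 were higher, with Msln at 6.04 ± 1.19 (adjusted p = 0.0267), and their summed level, in multiples of the 75th percentile, was 7.41 and 23.7 in LB1 livers, against 0.797 and 0.0869 in control livers. Of 4 tested B cell markers 3 were higher, and their sum was 2.33 and 2.66 in LB1 livers, against 1.15 and 1.36 in control livers. Of 10 Kupffer cell and macrophage markers none was higher in the limma fit and 2 were lower, Vsig4 (-1.59 ± 0.23) and C1qa (-0.79 ± 0.21), while their sum was 79.7 and 83.0 in LB1 livers, against 76.9 and 83.3 in control livers. Of 4 tested plasmacytoid dendritic cell markers 2 were higher, and Siglech, which defines that cell, was not above background on any array. For T cells 1 of 6 was higher, for NK cells 1 of 3, and for neutrophils 0 of 3 in the limma fit. The neutrophil sum was 4.84 and 14.5 in LB1 livers, against 2.36 and 3.01 in control livers. Of 5 tested hepatocyte markers 2 were higher, Alb and Apoa1, and 1 was lower, Cps1 (-1.24 ± 0.24, adjusted p = 0.0265). At least 1 array was saturated for each of these 3, so their sizes are not secure. After quantile normalization Alb and Apoa1 did not pass. The part of any of these cells in the interferon values was not tested.

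Some of the 9 calls among the members depended on the settings. Gbp2, Ifih1, Irf1, Tap1 and Tgtp1 passed under each of 9 other settings of scaling, background, filter and fit with limma, whereas Oas2, Ddx58, Stat2 and Usp18 lost their call in 1 to 4 of them. All 9 kept their direction in these settings, while averaging over the probes of a gene turned Ddx58 and Tgtp1. By the methods' t-test 4 of the 9 passed at its own threshold, an unadjusted p under 0.05 and more than a 2-fold difference. Gbp2, Tgtp1, Oas2, Stat2 and Usp18 did not, and the 1.7-fold difference of Usp18 was below the fold asked for. Without control replicate 1, or without control replicate 2, none of the 34 genes passed after adjustment in the limma fit, with 9 and 4 genes at an unadjusted p under 0.05, and only 139 and 1 of all tested probes passed. Without LB1 replicate 2, Gbp2, Stat2 and Usp18 no longer passed, and without LB1 replicate 1 the 9 passed along with Ifi27, Ifit2, Mx2 and Zbp1.

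**Figure D4:**
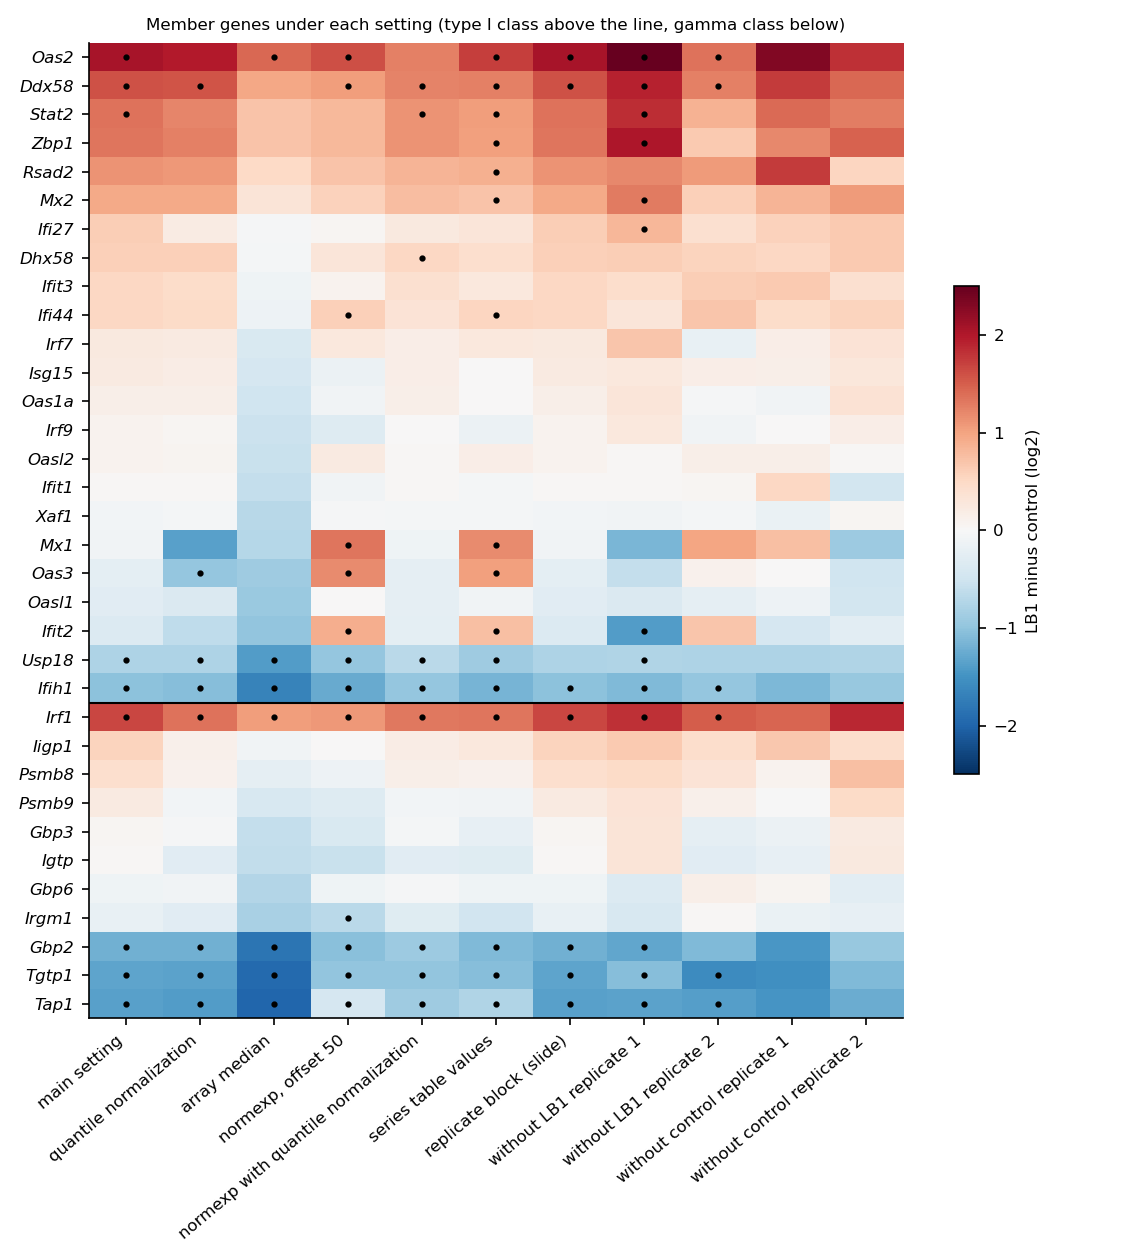
Difference in log2 level, LB1 minus control (colour, red higher and blue lower in LB1), of each tested member (rows, type I class above the line and gamma class below) under the main setting and 10 alternatives (columns); a dot marks an adjusted p under 0.05. Irf1 is red and Ifih1, Gbp2, Tgtp1 and Tap1 are blue in every column shown, Mx1, Oas3 and Ifit2 turn red with normexp background correction, and the columns without a control replicate hold no dot. In those columns the spread comes from the LB1 pair alone.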

How the data were processed

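Liver RNA of 2 LB1 and 2 control mice was read on 1-colour Agilent arrays. Per the file headers, the processed signal is linear and was made with Feature Extraction 10.5.1.1. The authors' software subtracted background and detrended it within each array, and it was not scaled between arrays. The design text names another version. The deposited series table holds the mean spot intensity, without background subtraction, rounded to whole numbers.

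Control spots and outlier flags were removed, the processed signals were put on a log2 scale, centred on each array's 75th percentile and averaged over the spots of a probe. Where 1 or both groups had a probe well above background on each of their arrays, it was fitted with lmFit and eBayes of limma 3.58.1 (R 4.3.3), with Benjamini-Hochberg adjustment over 22974 probes and a threshold of 0.05. Genes were named by accession through RefSeq (GRCm38.p6; 24993 probes), then by current (5966) or older symbol (1766), otherwise by the file's name (8449). Probe coordinates are those of the files (mm9). Each sample is labelled as a mouse of its own, so spread between arrays holds animal and technical variation.

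The members and the gene lists were chosen with earlier results of these data known, and p-values are adjusted over all probes. Any member could be named. Per-array values are given for members that passed or whose probes widely disagree. Of the other pathway genes, those that passed, the receptors and the kinases are named, and a further gene of the naming rule is not reported here, and of each marker list at most 4 genes are named. Slide, scan and replicate number are the same split, per the file headers; the deviations of same-numbered arrays from their group means correlated at 0.151, and 2 pairs are too few to establish pairing. The alternatives were another scaling (quantile, array median), normexp background correction with an offset of 50, the series table, other filters, the slide as a block, values within a slide, eBayes with trend and robust settings, the methods' t-test, the mean over probes and each array left out. Normexp followed by quantile normalization was added after seeing the data. No lists were tested as sets.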

Additional observations from a re-analysis of the deposited data

How the results depend on the processing

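Main values were 7439 probes, 9 members (5 type I, 4 gamma) and 21 other pathway genes that passed, with medians of 0.22 (type I) and 0.03 (gamma) and a gap of 0.19. The median over all probes was 0.16, and it was -0.09 with quantile normalization, -0.47 with the array median and 0.44 with normexp or the series table, so signs of members near 0 move with the setting. Of all probes 4409 were higher and 3030 lower, against 2451 and 3972 (quantile), 1658 and 7126 (array median) and 3153 and 4122 (normexp, then quantile). Quantile normalization gave medians of 0.18 and -0.09, and normexp followed by it, chosen after seeing the data, 0.16 and -0.07. The array median gave 3 type I calls and medians of -0.42 and -0.61. Normexp gave 15996 probes (11353 higher, 4643 lower), 13 members (7 higher, 6 lower) with 8 type I calls (6 and 2), 44 pathway genes (24 and 20), medians of 0.26 and -0.38 and a gap of 0.64. The series table gave 14446 probes (10691 higher, 3755 lower), 16 members (11 higher, 5 lower) with 12 type I calls (10 and 2), 35 pathway genes (23 and 12), medians of 0.30 and -0.20 and a gap of 0.50. Without a filter 20683 probes passed (17556 higher, 3127 lower) and the type I median was 0.18; with all 4 arrays above background it was 0.38 and the gap 0.35. With the replicate block (slide) 7 members passed, 3 of them type I, and Stat2 and Usp18 were lost; the samples share only a number and a slide. The methods' t-test at its own threshold gave 4109 probes and 4 members (2 type I, 2 gamma; Gbp2, Oas2, Stat2, Tgtp1 and Usp18 were lost), and 0 of 22958 probes after Benjamini-Hochberg adjustment, with 7012 at an unadjusted p under 0.05. Averaging probes gave a type I median of 0.15 and a gap of 0.10. Within slides 1 and 2 the type I median was 0.24 and 0.25.

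Some members changed sign where the gene passed under either setting: Ifit2 (0.91), Mx1 (1.34) and Oas3 (1.18) with normexp, the same genes (0.75, 1.18 and 1.02) with the series table, and Ddx58 (-0.24) and Tgtp1 (0.09) over the mean of their probes. The 3 dim genes are not well above background on all 4 arrays; otherwise the cause was not tested. Leaving out 1 array gave 1 to 11029 probes, 0 to 13 members, 0 to 9 type I and 0 to 4 gamma genes and 0 to 31 pathway genes; the lone array of a group is then assumed to vary like the others. The medians ranged from 0.31 to 0.45 (type I) and from -0.14 to 0.32 (gamma), and the gap from -0.01 to 0.59. The low signal of the LB1 arrays limits dim probes.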
